A study of Mus musculus with 28 samples.

Results

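The organ by NMN interaction was measured in the 12 RNA-seq libraries of the 2680 mg/kg/d schedule, out of 28 libraries in the series. The interaction is the NMN response in liver minus the NMN response in kidney, each taken as NMN-treated minus water-gavaged mice. All mice were 8-week-old C57BL/6 males (C57BL6J in the study's methods) gavaged 2 times a day for 7 days, with a saturated NMN solution or, in the control groups, with water. There were 3 libraries in each of the 4 groups: liver water, liver NMN, kidney water and kidney NMN. The labels do not say whether the liver and kidney of one number came from one mouse, so the libraries were treated as independent. Whole liver and whole kidney RNA was used, so fewer cells of a type and less RNA per cell cannot be told apart. Reads counted in genes ranged from 17573184 to 20635269 in the liver libraries, from 16358886 to 18983689 in the water kidneys and from 22922994 to 33872983 in the NMN kidneys. Of 54446 genes listed, 11919 were expressed in both organs by the filter used, and all tests were adjusted over these 11919 genes.

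Nicotinamide mononucleotide (NMN) is a precursor that cells convert directly into NAD+, the electron carrier of metabolism and the substrate of sirtuins and ADP-ribosylating enzymes. The liver and the kidney also make NAD+ from tryptophan by the de novo route, and both handle amino acids, ammonia and fatty acids. The liver exports glucose, lipids and plasma proteins, whereas the proximal tubule of the kidney reabsorbs solutes and releases ammonia into the urine. A gene expressed in both organs can therefore serve different functions in each.

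The labelled organs carried their defining markers. Albumin (Alb) ranged from 92264 to 120480 CPM (for these markers, counts scaled to 1000000 reads counted in all genes) in the liver libraries and from 8.55 to 16.5 CPM in the kidney libraries. Kap, the kidney androgen-regulated protein of the proximal tubule, ranged from 14245 to 21891 CPM in kidney. Kap was at 0.485, 5.77 and 1.08 CPM in the water livers and at 22.8, 0.749 and 0.825 CPM in the NMN livers. Kap was highest in NMN liver replicate 1, at 0.124% of its mean in kidney. The 12 hepatocyte markers together summed to 176616 ± 7177 CPM (SD, n = 3) in water livers and 150014 ± 5573 in NMN livers, with no overlap. Alb made up most of that sum, and NMN lay below water without overlap at 5 of the 12 genes and overlapped at 7. Of all genes tested, counting both directions, 29.4% did not overlap in liver and 17.6% in kidney. The 10 proximal tubule markers summed to 31248 ± 856 CPM in water kidneys and 24247 ± 2463 in NMN kidneys, again with no overlap. Kap made up most of this sum (21891, 20336 and 21085 CPM with water against 15001, 17893 and 14245 with NMN), and NMN lay below water without overlap at 5 of the 10 genes. The other 5 overlapped, among them the endocytic receptor gene Cubn (345, 382 and 407 CPM against 399, 406 and 375) and the organic anion transporter gene Slc22a8 (668, 564 and 589 CPM against 603, 589 and 786). Of 10 lists of other cell types, 3 had sums in liver that did not overlap. The 5 erythroid markers summed to 108, 126 and 110.4 CPM in water livers and 45.5, 45.5 and 87.6 CPM in NMN livers, led by Alas2, the erythroid enzyme of heme synthesis (81.7, 101 and 100.2 CPM against 37.3, 35.3 and 22.9), while the 4 globin genes overlapped. The 5 podocyte markers, led by Podxl, summed to 6.16 to 8.35 CPM in water livers and 10.2 to 11.6 CPM in NMN livers, with 2 of them at 0 in each liver library. The 6 adrenal cortex markers, led by Star, summed to 0.728 to 1.71 CPM and 2.47 to 3.48 CPM, with at least 4 of them at 0 in each. The sums of the 10 lists overlapped in kidney. The part of these shifts in the results was not tested.

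The liver and the kidney responded differently to NMN at 542 of the 11919 genes (4.55%, adjusted p under 0.05 by edgeR after Benjamini-Hochberg correction). The response was higher in liver at 236 of them (1.98%) and lower in liver at 306 (2.57%), and 22.3% of genes had an unadjusted p under 0.05. In liver alone 841 genes changed (7.06%), 369 up-regulated (3.1%) and 472 down-regulated (3.96%), with 24.5% at an unadjusted p under 0.05. In kidney alone 31 genes changed (0.26%), 10 up-regulated (0.0839%) and 21 down-regulated (0.176%), with 11.3% at an unadjusted p under 0.05. Residual variation between replicates was larger in liver, with a biological coefficient of variation of 22.8% against 11.0% in kidney. Across genes, the liver and kidney log2 fold changes had a Spearman rho of 0.074, given as a description because genes are not independent replicates. The counts moved with single libraries. The interaction count was 265 without water liver replicate 2, 1523 without NMN liver replicate 2 and 313 without NMN liver replicate 3. It was 195, 165 and 145 without water kidney replicate 1, 2 or 3, and 255, 208 and 149 without NMN kidney replicate 1, 2 or 3. The liver count was 310, 182 and 476 without water liver replicate 1, 2 or 3, and 1298 and 207 without NMN liver replicate 2 or 3. The kidney count was 2, 2 and 0 without water kidney replicate 1, 2 or 3, 127 without NMN kidney replicate 1 and 9 without NMN kidney replicate 3. With the replicate number as a block the interaction was called at 319 genes, of which 275 were among the 542. DESeq2 called 1272 genes for the interaction, and these included all 542. It called 182 genes in kidney, 84 up-regulated and 98 down-regulated, and without a filter on low counts 111 were called in kidney, 50 up-regulated and 61 down-regulated.

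The 542 genes were sorted by the organ in which they changed. A gene was called liver only where its liver response passed the adjusted threshold and its kidney response had an unadjusted p of 0.05 or more, and kidney only in the converse case. It was called opposite where both organs had an unadjusted p under 0.05 and different directions, and unequal where both moved the same way by different amounts. There were 352 liver-only genes (2.95% of genes tested), 153 up-regulated and 199 down-regulated. No gene was kidney only by edgeR, 17 were by DESeq2, and 206 were at an unadjusted p under 0.05. There were 89 opposite genes (0.747%), 45 higher and 44 lower with NMN in liver. Their directions rest on the unadjusted threshold, since 41 passed the adjusted threshold in liver, 6 in kidney and 3 in both. There were 45 unequal genes (0.378%), 10 up and 35 down in liver, and the last 56 (0.47%) met none of these rules. Of all genes 2 (0.0168%), Sugct and Pbld2, changed in both organs in the same direction with no interaction called, which does not show that the responses were equal. The liver-only count was 151 and 95 without water liver replicate 1 or 2, 880 and 103 without NMN liver replicate 2 or 3, 136, 102 and 100 without water kidney replicate 1, 2 or 3, and 155, 125 and 105 without NMN kidney replicate 1, 2 or 3. The opposite count was 46 without water liver replicate 2, 155 and 56 without NMN liver replicate 2 or 3, 42, 39 and 33 without water kidney replicate 1, 2 or 3, and 54 and 29 without NMN kidney replicate 2 or 3. The unequal count was 27 without water liver replicate 2, 77 without NMN liver replicate 2, 13, 22 and 11 without water kidney replicate 1, 2 or 3, and 21, 22 and 13 without NMN kidney replicate 1, 2 or 3. With the replicate number as a block there were 210 liver-only, 58 opposite and 29 unequal genes. In 74 of the 89 opposite genes NMN and water libraries did not overlap in either organ. Over all genes the groups did not overlap at 29.4% in liver and 17.6% in kidney, and in both organs at once at 694 of 11919. Nothing is read from the 74, because the class was chosen on these contrasts.

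**Figure D1:**
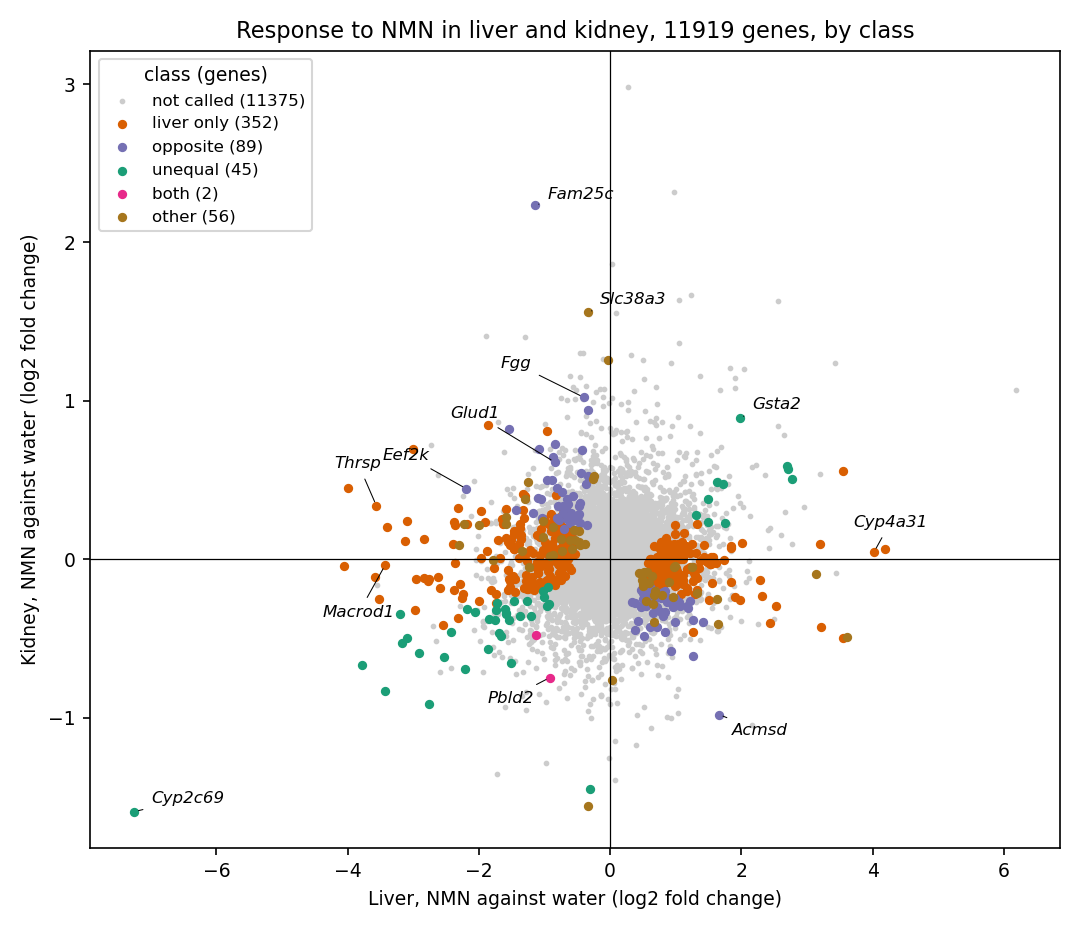
Log2 fold change of each of 11919 genes, NMN against water, in liver (x axis) and kidney (y axis), with colours for the class of response. Liver-only genes spread along the horizontal axis, the 89 opposite genes lie in the upper left and lower right quadrants, and the liver value plotted for Cyp2c69 depends on the fit because its NMN livers held 0, 1 and 1 counts.

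Acmsd was the opposite gene with the smallest interaction p among those higher with NMN in liver. It encodes the decarboxylase that diverts an intermediate of tryptophan breakdown away from NAD+ synthesis. CPM of single genes below are counts scaled to 1000000 reads in tested genes, with TMM factors within each organ, unless said otherwise. Acmsd was at 38.3, 34.5 and 27.6 CPM in the water livers and at 150.3, 90.3 and 77.5 CPM in the NMN livers. It was at 178, 162 and 159 CPM in the water kidneys and at 107, 71.2 and 75.0 CPM in the NMN kidneys. Every NMN liver lay above every water liver and every NMN kidney below every water kidney. The log2 fold change was 1.66 ± 0.24 (SE) in liver (edgeR adjusted p = 0.00483) and -0.98 ± 0.15 in kidney (adjusted p = 0.0463). The interaction was 2.64 ± 0.32 (adjusted p = 0.00105), and it passed the threshold under every alternative fit. The kidney change alone was no longer called in 9 alternatives, among them without any 1 of the water kidneys or NMN kidney replicate 3. The counting ignored strand, so reads of overlapping genes cannot be told apart, and Acmsd overlaps the non-coding gene 2900009J06Rik. Of the other genes named below, Dleu2, Eef2k, Fgg, Cyp2d9, Crat, Shmt1, Adora1 and Hyi also overlap another gene.

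Acmsd was the 1 opposite gene of the NAD list. Of 40 tested genes of the NAD list, the interaction was called at 4 (against 4.55% of all genes): Acmsd, Macrod1, Nadsyn1 and Parp1. Nadsyn1, which completes NAD+ synthesis from nicotinic acid, was down-regulated in liver (log2 fold change -1.16 ± 0.19 (SE), adjusted p = 0.00679) and at -0.19 in kidney (adjusted p = 0.502). Its interaction call was lost without water liver replicate 2, water kidney replicate 2 or 3 or NMN kidney replicate 2 or 3 (adjusted p up to 0.0746). Parp1, which builds poly(ADP-ribose) from NAD+, had log2 fold changes of -0.48 in liver and 0.18 in kidney, neither past the adjusted threshold, with an interaction of -0.66 (adjusted p = 0.0274). Nampt, the salvage enzyme that makes NMN from nicotinamide, was up-regulated in liver (0.73 ± 0.17, adjusted p = 0.0302), but its interaction missed the threshold (0.65 ± 0.22, adjusted p = 0.1). Nmnat1, which turns NMN into NAD+, Nmrk1, which phosphorylates nicotinamide riboside, and Nnmt, which methylates nicotinamide, had interactions of -0.39, 0.32 and -0.88, none of them called. The list's median log2 fold change was -0.039 in liver and 0.011 in kidney, against 0.00060 and 0.0024 over all genes. Ido2, an indoleamine dioxygenase at the start of tryptophan breakdown that was chosen after its values were seen, had directions opposite to Acmsd. It was at 94.4, 93.6 and 102 CPM in water livers against 61.2, 82.5 and 81.4 in NMN livers, and at 9.68, 13.2 and 11.2 CPM in water kidneys against 15.0, 16.8 and 15.6 in NMN kidneys (interaction -0.84 ± 0.20, adjusted p = 0.0329). Neither organ's change in Ido2 passed the adjusted threshold (adjusted p = 0.176 in liver and 0.178 in kidney), and its interaction call was lost without water liver replicate 2, water kidney replicate 1 or 3 or NMN kidney replicate 1, 2 or 3 (adjusted p up to 0.0858). The interaction of Nampt was called in 2 alternatives. The liver call of Nampt was lost without water liver replicate 1 or 2 or NMN liver replicate 1 or 3 (adjusted p up to 0.129).

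Fam25c had the smallest interaction p of the genes lower with NMN in liver and higher in kidney. It was at 12.9, 13.0 and 11.4 CPM in water livers and 7.05, 5.01 and 4.72 CPM in NMN livers. In kidney it was at 2.91, 2.24 and 2.04 CPM with water and 8.29, 9.81 and 15.8 CPM with NMN. The groups did not overlap in either organ. The log2 fold change was -1.15 ± 0.24 (SE) in liver (edgeR adjusted p = 0.0169) and 2.24 ± 0.27 in kidney (adjusted p = 0.0182), with an interaction of -3.38 ± 0.37 (adjusted p = 0.000495). The liver call was lost without water liver replicate 1 or 2 or NMN liver replicate 3 (adjusted p up to 0.0811). Glud1, which encodes glutamate dehydrogenase, the mitochondrial enzyme that releases ammonia from glutamate with NAD+ or NADP+, followed the same course. It was at 1398, 1211 and 1261 CPM in water livers and 673, 667 and 814 in NMN livers. In kidney it was at 589.9, 508 and 509 CPM with water and 649, 879 and 932 with NMN. No NMN library overlapped a water library in either organ. The log2 fold change was -0.85 ± 0.13 in liver (adjusted p = 0.00557) and 0.61 ± 0.13 in kidney, where it missed the adjusted threshold (adjusted p = 0.0935), and the interaction was -1.46 ± 0.20 (adjusted p = 0.00171).

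Fam25c and Glud1 are neighbours on mouse chromosome 14, transcribed toward each other, with 6615 bases and 1 annotated pseudogene (Gm3219) between them in GENCODE M21. The promoters of these neighbours are shown because both were opposite genes, and that of Macrod1 because it had the smallest interaction p of all genes. Each is 300 bases, from 250 before to 50 after the start site, from the RefSeq annotation of GRCm38.p6, written 5′ to 3′ on the strand of the gene. The windows are chr14:34355344-34355643 on the minus strand for Fam25c, chr14:34310477-34310776 on the plus strand for Glud1 and chr19:7056518-7056817 on the plus strand for Macrod1, the first of 2 listed start sites. Capitals mark matches to 6 motifs searched on both strands.
Fam25c: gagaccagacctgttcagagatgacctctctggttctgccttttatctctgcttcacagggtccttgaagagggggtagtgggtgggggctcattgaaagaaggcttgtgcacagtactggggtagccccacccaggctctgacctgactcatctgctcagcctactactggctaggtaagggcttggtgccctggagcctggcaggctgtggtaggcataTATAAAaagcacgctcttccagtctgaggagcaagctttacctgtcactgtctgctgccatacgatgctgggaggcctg
Glud1: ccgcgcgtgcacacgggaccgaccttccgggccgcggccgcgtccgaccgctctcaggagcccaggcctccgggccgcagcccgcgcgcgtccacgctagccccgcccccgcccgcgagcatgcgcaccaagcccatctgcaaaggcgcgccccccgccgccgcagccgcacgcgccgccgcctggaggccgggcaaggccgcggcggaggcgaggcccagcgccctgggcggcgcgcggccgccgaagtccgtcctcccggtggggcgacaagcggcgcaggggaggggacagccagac
Macrod1: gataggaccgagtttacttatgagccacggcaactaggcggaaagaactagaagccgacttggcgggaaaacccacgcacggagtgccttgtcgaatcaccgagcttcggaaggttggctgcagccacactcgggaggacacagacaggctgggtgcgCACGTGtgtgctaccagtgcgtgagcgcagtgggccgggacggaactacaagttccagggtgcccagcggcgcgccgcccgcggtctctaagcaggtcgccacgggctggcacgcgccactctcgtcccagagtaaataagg
The motifs were the E-box CACGTG, the full cAMP response element TGACGTCA, the antioxidant response core TGACNNNGC, the forkhead motif GTAAACA, the CCAAT box and the TATA box TATAAA. Fam25c held a TATAAA starting 29 bases before its start site, a motif present in 13.6% of all 32851 promoter windows and in 8.83% of the 9287 tested genes with a window. Macrod1 held a CACGTG 92 bases before its start site, present in 7.15% of all windows and in 12.1% of those tested genes. The Glud1 window held none of the 6. The neighbours differed in composition, with 81.0% G or C and 51 CpG dinucleotides in the Glud1 window against 55.3% and 2 in that of Fam25c. A match is a run of letters and was not tested as a binding site.

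Other genes of the list of the urea cycle, ammonia and aminotransferases also differed between the organs. Of 21 tested genes in the list, the interaction was called lower in liver at 4 (Glud1, Slc38a3, Glul and Prodh2) and higher at 0, against 2.57% lower and 1.98% higher of all genes, and the list's median log2 fold change was -0.23 in liver and 0.070 in kidney. Slc38a3, a glutamine transporter, was at 84.2, 73.4 and 66.4 CPM in water kidneys and at 160.5, 209 and 291 CPM in NMN kidneys, with no overlap. Its kidney log2 fold change of 1.56 ± 0.23 (SE) missed the adjusted threshold (adjusted p = 0.0918), its liver value was -0.34 ± 0.21 (adjusted p = 0.346) and its interaction -1.90 ± 0.33 (adjusted p = 0.00912). Glul, glutamine synthetase, which in liver is confined to the hepatocytes around the central veins, was a liver-only gene. It fell from 1028, 949 and 1140 CPM in water livers to 271, 447 and 524 in NMN livers (-1.33 ± 0.21, adjusted p = 0.0073) and was at 0.04 on the log2 scale in kidney. Prodh2, a mitochondrial enzyme of hydroxyproline breakdown, was down-regulated in both organs, by more in liver (-1.86 ± 0.21, adjusted p = 0.00106) than in kidney (-0.57 ± 0.10, adjusted p = 0.0488). The interaction call of Glul was lost without any 1 of the water livers, the water kidneys or NMN kidney replicate 2 or 3 (adjusted p up to 0.103) and by limma voom, and that of Prodh2 without water kidney replicate 3 or NMN kidney replicate 3 (adjusted p up to 0.0572). Pck1, the gluconeogenic enzyme that acts downstream of Glud1 in the proximal tubule, was looked up after the values of Glud1 were seen. Its log2 fold change was 0.90 ± 0.40 in kidney (adjusted p = 0.492) and 1.03 in liver, and its interaction of 0.13 missed the threshold (adjusted p = 0.914). The transaminase genes Gpt and Got1 had interactions of -0.39 and -0.34, with edgeR adjusted p of 0.331 and 0.506. They encode forms of the enzymes measured in serum as ALT and AST.

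**Figure D2:**
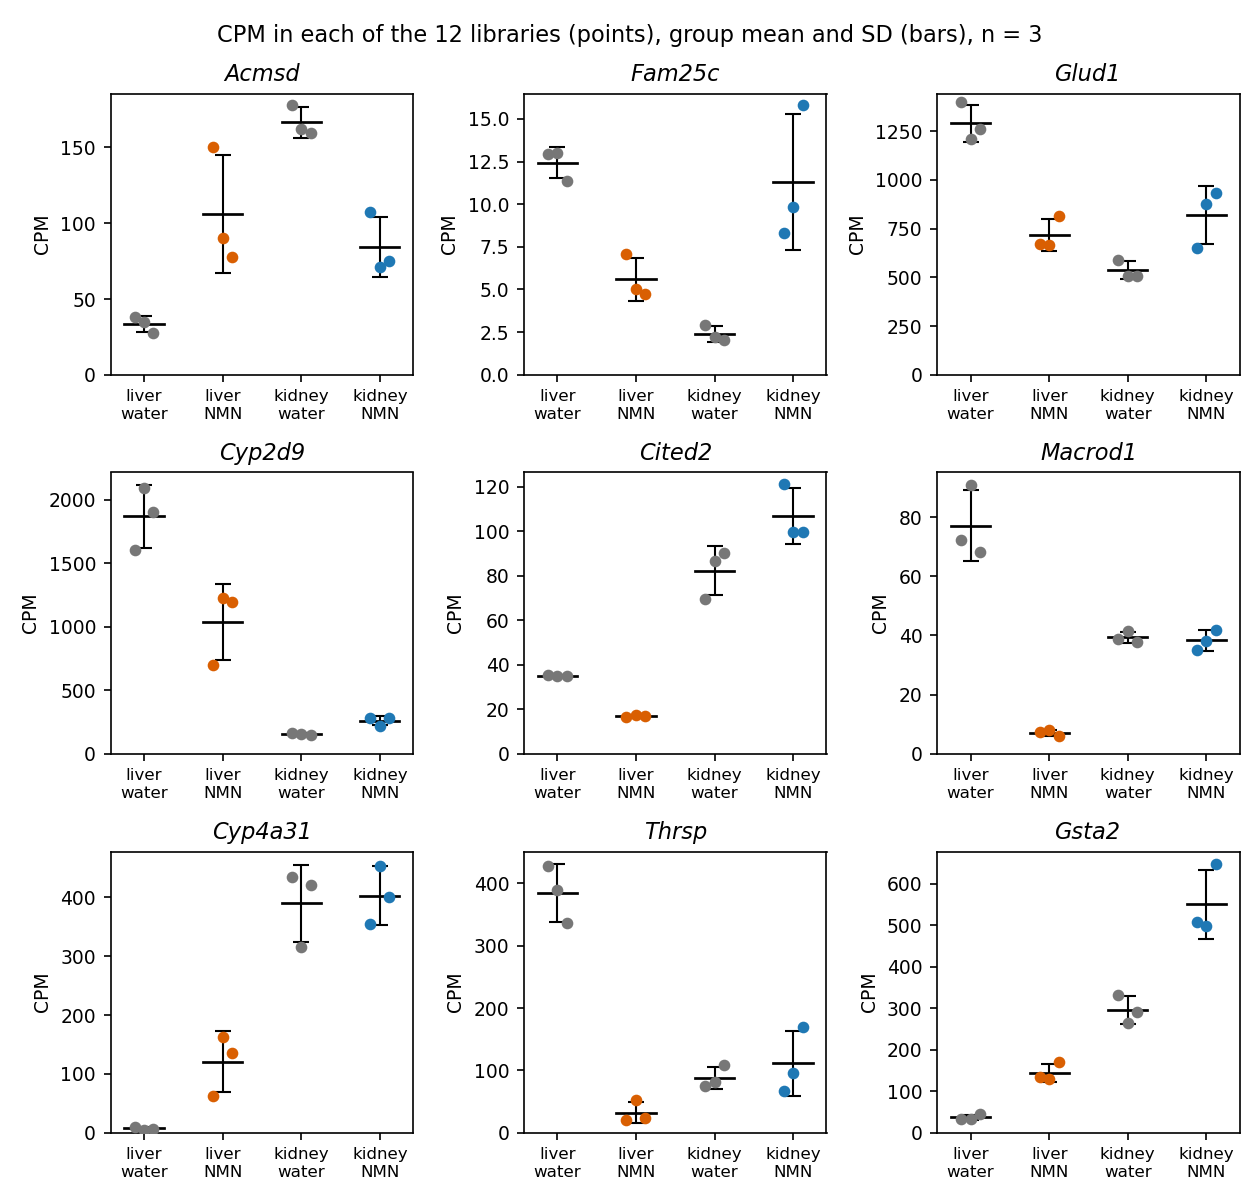
CPM (y axis, from 0) of 9 genes in each of the 12 libraries (points), with the group mean (line) and SD (bar, n = 3). Acmsd was higher in NMN livers and lower in NMN kidneys, Fam25c, Glud1, Cyp2d9 and Cited2 had the reverse order, Macrod1, Cyp4a31 and Thrsp separated in liver alone, and Gsta2 was higher with NMN in both organs.

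The remaining genes that were lower with NMN in liver and higher in kidney included enzymes, plasma proteins and signalling genes. Eef2k, the kinase that slows translation elongation, was at 11.2, 10.9 and 9.83 CPM in water livers and 1.67, 2.48 and 2.83 in NMN livers, and at 4.92, 4.29 and 5.17 CPM in water kidneys and 6.73, 5.83 and 6.99 in NMN kidneys (interaction -2.64 ± 0.30, adjusted p = 0.000709). Cited2, a co-regulator that limits hypoxia-inducible transcription, was within 35.0 to 35.4 CPM in water livers and 16.5 to 17.4 CPM in NMN livers, while in kidney its log2 fold change was 0.38 ± 0.11 (unadjusted p = 0.00596). Gpc1, a cell-surface heparan sulfate proteoglycan that overlaps Ankmy1, had log2 fold changes of -1.55 ± 0.33 in liver and 0.82 ± 0.18 in kidney. Cyp2d9, a cytochrome P450 of the mouse Cyp2d cluster with near-identical copies, passed the adjusted threshold in both organs, at -0.85 ± 0.20 in liver (adjusted p = 0.0354) and 0.73 ± 0.10 in kidney (adjusted p = 0.0182). Acmsd, Fam25c and Cyp2d9 were the 3 opposite genes with an adjusted p under 0.05 in both organs. Without water kidney replicate 1, 2 or 3 the kidney call was lost for all 3, and without NMN kidney replicate 3 for Acmsd and Cyp2d9. The liver call of Cyp2d9 was lost without any 1 of the water livers or NMN liver replicate 3 (adjusted p up to 0.138). In kidney alone Fgg, Cdo1 and Chd3 passed as well, and the last pair was chosen after its values were seen. Cdo1, which oxidises cysteine, was at 232, 220.4 and 233 CPM in water kidneys and 307, 321 and 356 in NMN kidneys (0.52 ± 0.08, adjusted p = 0.0276) and at -0.34 on the log2 scale in liver. Chd3, a chromatin remodeller, moved the other way, at -0.45 in kidney (adjusted p = 0.0421) and 0.38 in liver. Ebp, a sterol isomerase, was the 1 called gene of 25 in the cholesterol list (4.55% of all genes were called), at -0.33 in liver and 0.95 in kidney, and Mgst1, Aldh1l1, Xdh and Slco2a1 moved in the same directions, with interactions of -0.84, -0.82, -0.69 and -1.03. Of these, the interaction call of Mgst1 was lost without water kidney replicate 2 or 3 or NMN kidney replicate 3 (adjusted p up to 0.0561), and that of Slco2a1 without water kidney replicate 3 (adjusted p up to 0.0534). That of Aldh1l1 was lost without water liver replicate 2, water kidney replicate 1, 2 or 3 or NMN kidney replicate 3 (adjusted p up to 0.0735), and that of Xdh without NMN liver replicate 3, water kidney replicate 1 or 3 or NMN kidney replicate 1, 2 or 3 (adjusted p up to 0.085) and with the replicate block.

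The fibrinogen genes Fgg and Fga, which encode 2 of the 3 chains of the clotting protein made by hepatocytes, were opposite genes as well. Fgg was at 9.12, 9.93 and 10.4 CPM in water kidneys and 21.8, 17.7 and 20.2 CPM in NMN kidneys, and the groups did not overlap (log2 fold change 1.02 ± 0.12 (SE), edgeR adjusted p = 0.0182). In liver it was at 6307, 5473 and 5662 CPM with water and 5696, 3909 and 3604 with NMN, where 1 NMN library lay among the water libraries (-0.40 ± 0.17, adjusted p = 0.167). Fga had log2 fold changes of 0.69 ± 0.19 in kidney and -0.43 ± 0.15 in liver, with an interaction of -1.12 ± 0.28 (adjusted p = 0.0379). Neither organ's change in Fga passed the adjusted threshold (adjusted p = 0.257 in kidney and 0.118 in liver), and the interaction call was lost in 8 alternatives, with offsets for GC content and length and without water liver replicate 1 or 2, NMN liver replicate 3, water kidney replicate 2 or 3 or NMN kidney replicate 1 or 3 (adjusted p up to 0.0998). Fgb, the gene of the third chain, was looked up after its values were seen and was not called, with log2 fold changes of 1.01 in kidney (adjusted p = 0.657) and -0.41 in liver (adjusted p = 0.146) and an interaction of -1.41 (adjusted p = 0.244). On the scale of all counted reads it was at 1.53, 0.978 and 1.29 CPM in water kidneys and 5.63, 0.899 and 1.48 CPM in NMN kidneys, where 1 NMN library stood above the rest and the groups overlapped. At the share of Alb found in each kidney library, from 0.00801 to 0.0155% of the liver level, liver RNA would bring at most 0.791 CPM of Fgg and 0.851 CPM of Fga.

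Of the 45 genes higher with NMN in liver and lower in kidney, Acmsd, Dleu2, Khdc4 and Tia1 were named by the rule on the smallest interaction p. Dleu2, a non-coding RNA that hosts microRNAs, had log2 fold changes of 0.99 and -0.39 in liver and kidney, the splicing-related gene Khdc4 0.89 and -0.25, and Tia1, an RNA-binding protein of stress granules, 1.17 and -0.30. Srsf6, a serine- and arginine-rich splicing factor, was at 87.1, 68.1 and 69.3 CPM in water livers and 171, 108 and 129.6 in NMN livers, and at 192, 183 and 172 CPM in water kidneys and 141, 158 and 156 in NMN kidneys. Hnrnph1, Luc7l3 and the transcription factor Creb1 had the same directions, with interactions of 1.05, 1.33 and 1.49. Srsf6, Hnrnph1, Luc7l3 and Creb1 were chosen after their values were seen. The interaction call of Luc7l3 was lost without water kidney replicate 2 or NMN kidney replicate 3 (adjusted p up to 0.0536). Outside Acmsd the kidney change of these genes, from -0.39 to -0.23, passed only the unadjusted threshold.

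Splicing factor families (symbols beginning Srsf, Hnrnp, Rbm, Luc7l, Clk, Prpf, Sf3 or Snrp) were counted as a group, also chosen after the values were seen. Of 110 tested members the interaction was called higher in liver at 11 and lower at 1 (Snrpn), against 1.98% and 2.57% of all genes. The median log2 fold change of the group was 0.17 in liver and -0.053 in kidney, and 68 members were above 0 in liver and 36 in kidney. Across genes, the interaction had a Spearman rho of 0.250 with summed exon length and of -0.265 with GC content, as a description. The rho with exon length was 0.250 for the liver log2 fold change and -0.028 for that in kidney. The median summed exon length was 7278 bases in the 45 opposite genes higher with NMN in liver and 6627 bases in the 153 liver-only up-regulated genes, against 3176 and 3174 bases in the corresponding genes lower in liver and 4440 bases in all genes. The median GC content was 43.6% and 46.4% in the genes higher in liver and 52.1% and 53.5% in those lower. Offsets for GC content and length in each library were added after the data were seen. With them the interaction was called at 500 genes, of which 375 were among the 542 of the main fit. Still called were 68 of the 89 opposite genes and 246 of the 352 liver-only genes, and all genes of both classes kept their sign.

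The share of reads that the counter assigned to no gene also differed between the groups. In liver their share was 3.62%, 3.27% and 3.47% with water and 5.06%, 3.90% and 4.21% with NMN. In kidney it was 7.36%, 7.04% and 6.85% with water and 6.48%, 6.45% and 6.62% with NMN. NMN and water libraries did not overlap in either organ (exact two-sided permutation test, p = 0.1 in each, the smallest p that 3 against 3 allows). The counting mode set aside every read that was not wholly within exons. The part of this shift in the response of the RNA-processing and long genes was not tested.

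**Figure D3:**
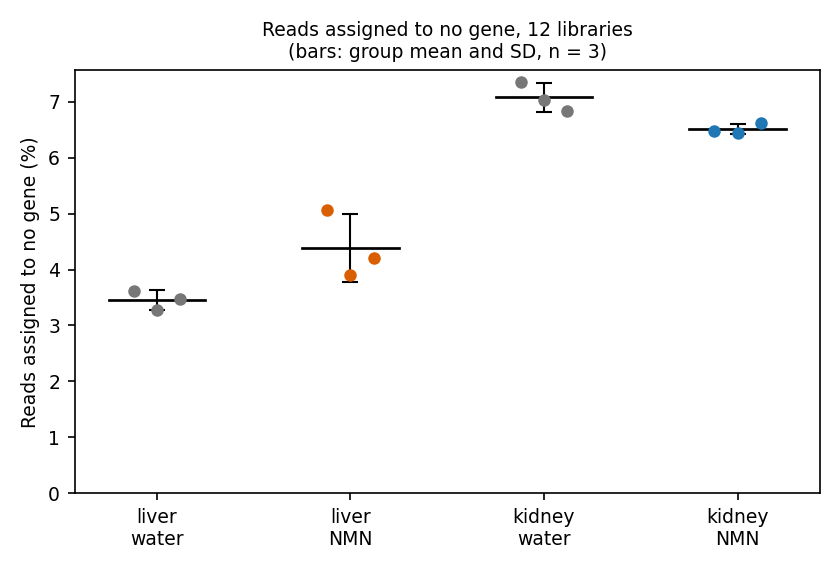
Reads assigned to no gene (y axis, % of the counter's reads, from 0) in each of the 12 libraries (points), with the group mean (line) and SD (bar, n = 3). The share was higher in NMN than in water livers and lower in NMN than in water kidneys.

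The largest class, liver only, was led by Macrod1, which encodes a mitochondrial hydrolase that removes ADP-ribose from proteins and from the acetyl-ADP-ribose made by sirtuins. Macrod1 was at 72.4, 90.8 and 68.1 CPM in water livers and at 7.44, 7.97 and 6.02 CPM in NMN livers. In kidney it was at 38.8, 41.4 and 37.9 CPM with water and at 34.9, 38.2 and 41.8 CPM with NMN. The liver groups were far apart and the kidney groups overlapped. The log2 fold change was -3.43 ± 0.19 (SE) in liver (edgeR adjusted p = 7.86e-06) and -0.04 ± 0.09 in kidney (adjusted p = 0.905). The interaction of -3.39 ± 0.20 had an adjusted p of 1.42e-06, the smallest of the 11919 genes.

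The other leading down-regulated liver-only genes were Slc23a1, Tmem86b, Gstm2 and Tmem9. Slc23a1, the sodium-dependent vitamin C transporter of epithelia, was at 59.5, 63.2 and 69.5 CPM in water livers and 18.2, 22.0 and 20.1 in NMN livers, and at 248, 263 and 252 CPM in water kidneys and 245, 257 and 264 in NMN kidneys. Tmem86b, which encodes lysoplasmalogenase, had a liver log2 fold change of -2.26 ± 0.17, the glutathione transferase Gstm2 -1.53 ± 0.15 and the lysosomal membrane protein gene Tmem9 -1.47 ± 0.18. Their kidney values were -0.25, 0.09 and 0.16, and the kidney groups overlapped in all 4. Leading the up-regulated liver-only genes, Cyp4a31, a fatty acid omega-hydroxylase of a cluster of similar copies, was at 10.2, 4.89 and 7.09 CPM in water livers and 62.4, 163 and 136 in NMN livers, and at 435, 315 and 421 CPM in water kidneys and 354, 454 and 400.3 in NMN kidneys. Its liver log2 fold change was 4.02 ± 0.43 and its kidney one 0.05 ± 0.13. Glt1d1, the DNA-binding regulator gene Fubp1, the chromatin reader gene Brpf3 and the zinc finger gene Zfp131 followed, with liver log2 fold changes of 1.84, 1.28, 1.61 and 1.24 and kidney values between -0.07 and 0.07.

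De novo lipogenesis, the synthesis of fatty acids from sugar, was the pathway list with the largest gap between the organs. The interaction was called lower in liver at 6 of 24 tested genes (Thrsp, Acacb, Pklr, Fasn, Scd1 and Pgd) and higher at 0, against 2.57% and 1.98% of all genes, and limma voom called 4 of the 24. The median log2 fold change was -0.61 in liver and 0.14 in kidney, against 0.00060 and 0.0024 over all genes. In liver 10 members were called down-regulated, against 3.96% of all genes. In kidney none was called, and nothing is read from that, because 0.26% of all genes were called there. Thrsp, a regulator of lipogenic enzymes, was at 428, 389 and 336 CPM in water livers and 21.1, 52.5 and 23.8 in NMN livers, and at 74.8, 81.4 and 108 CPM in water kidneys and 67.8, 96.6 and 169.6 in NMN kidneys. Acacb, the acetyl-CoA carboxylase at mitochondria, was at 89.4, 89.0 and 120.3 CPM in water livers, 13.0, 34.1 and 19.0 in NMN livers, and 57.1, 56.6 and 61.8 CPM in water kidneys and 59.4, 63.2 and 81.9 in NMN kidneys. Both separated in liver and overlapped in kidney. Fasn, fatty acid synthase, had a log2 fold change of -1.91 ± 0.25 (SE) in liver and 0.24 ± 0.40 in kidney, where its CPM ran from 460.0 to 1084 across the 6 libraries. Its interaction call was lost in 6 alternatives, among them without NMN liver replicate 1 or water kidney replicate 1 or 2 (adjusted p up to 0.0702). That of Scd1, a fatty acid desaturase, was lost in 11, among them without water liver replicate 1 or 3, NMN liver replicate 1 or 3, water kidney replicate 1 or 2 or NMN kidney replicate 2 or 3 (adjusted p up to 0.102). Markers of adipocytes, which also make these enzymes, summed to between 248 and 492 CPM in the kidney libraries and 7.99 to 12.3 CPM in the liver libraries, scaled to all counted reads. Their part in the kidney values of the lipogenic genes was not tested. Pklr, the liver-type pyruvate kinase, which overlaps Hcn3, was down-regulated in liver (-3.20 ± 0.54, adjusted p = 0.0272) and had a kidney value of -0.35 ± 0.11 (unadjusted p = 0.00908). The liver call of Pklr was lost without water liver replicate 1 or NMN liver replicate 2 or 3 (adjusted p up to 0.0908) and without a filter on low counts.

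The counts that follow are read against the 1.98% of all genes called higher and the 2.57% called lower in liver. In fatty acid oxidation, of 47 tested genes, targets of PPAR-alpha included, the interaction was called higher in liver at 2 (Cyp4a31 and Crat) and lower at 0, and the medians were alike, 0.17 in each organ. Crat, carnitine acetyltransferase, was up-regulated in liver (1.56 ± 0.26, adjusted p = 0.00912) and at 0.01 in kidney. Cyp4a10 had an interaction of 1.71 ± 0.47 that missed the threshold (adjusted p = 0.0607) but was called in 4 alternatives. In 18 tested p53 targets the interaction was called higher in liver at 3 (Trp53inp1, Polk and Mdm2) and lower at 0, with a median of 0.49 in liver and 0.14 in kidney, and limma voom called 1 of the 18. The call of Polk, a DNA polymerase that bypasses lesions, was lost in 10 alternatives, among them without water liver replicate 1, NMN liver replicate 3, water kidney replicate 1 or 3 or any 1 of the NMN kidneys (adjusted p up to 0.0827). Mdm2, which restrains p53, was at 15.6, 16.5 and 19.7 CPM in water livers and 35.3, 26.0 and 41.1 in NMN livers, and its interaction (0.83 ± 0.22, adjusted p = 0.0491) was lost in 16 alternatives, among them without any 1 library except water liver replicate 3 and NMN liver replicate 2 (adjusted p up to 0.128). In one-carbon metabolism it was called lower in liver at 3 of 26 genes: Gamt, which makes creatine (-1.54), Shmt1, the cytosolic serine hydroxymethyltransferase (-0.88), and Aldh1l1, a folate dehydrogenase (-0.82). In purine handling it was called lower at 2 of 14 genes, Xdh, which makes uric acid, and the adenosine receptor gene Adora1 (-1.90). Of 33 genes of insulin signalling and gluconeogenesis 1 was called, the gluconeogenic phosphatase Fbp1, at -0.78 in liver and -0.04 in kidney. The interaction call of Shmt1 was lost without water kidney replicate 3 (adjusted p up to 0.0556), that of Adora1 without water liver replicate 2, water kidney replicate 1, 2 or 3 or NMN kidney replicate 1 or 3 (adjusted p up to 0.0732), and that of Fbp1 without water kidney replicate 1, 2 or 3 or NMN kidney replicate 2 or 3 (adjusted p up to 0.0638) and with offsets for GC content and length. The liver call of Polk was lost without water liver replicate 1, 2 or 3 or NMN liver replicate 3 (adjusted p up to 0.11), that of Mdm2 without water liver replicate 1 or 2 or NMN liver replicate 3 (adjusted p up to 0.086) and that of Adora1 without water liver replicate 2 or 3 or NMN liver replicate 3 (adjusted p up to 0.0816).

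Detoxification and transport genes were called in both directions. In the glutathione and NRF2 list the interaction was called higher in liver at 2 of 35 genes (Gsta2 and Ugdh) and lower at 3 (Gstm2, Gstm7 and Mgst1). Among 31 cytochrome P450 genes outside the Cyp4a group it was called higher at 2 (Cyp39a1 and Cyp4b1) and lower at 3 (Cyp2c69, Cyp2d9 and Cyp2d22). Among 17 conjugating enzymes it was called lower at Ugt2b38 alone (-2.62 in liver and -0.11 in kidney). At the share of Kap found in NMN liver replicate 1, kidney RNA would bring 1.09 of the 2.22 CPM of Ugt2b38 counted there, 0.878 of 9.5 CPM of Timp3 and 2.72 of 15.5 CPM of Cyp4b1, the last pair being opposite genes higher with NMN in liver (interactions 1.65 and 0.85). Timp3, Cyp4b1, Fasn, Scd1 and Glul were chosen after their values were seen. Among 31 solute carriers it was called higher at 1, the aromatic amino acid carrier gene Slc16a10 (1.24), and lower at 3, Slco2a1 (-1.03), Slco2b1 (-0.98) and Slc22a28 (-2.60). In the acute phase list it was called at 3 of 21 genes, Fgg, Fga and Il1r1, the interleukin-1 receptor gene, which was up-regulated in liver (36.2, 26.0 and 36.8 CPM with water against 59.4, 83.7 and 70.4 with NMN) and at 0.03 on the log2 scale in kidney. The interaction call of Il1r1 (adjusted p = 0.0363) was lost in 9 alternatives, with the replicate block, with offsets for GC content and length and without water liver replicate 2, NMN liver replicate 3, water kidney replicate 1, 2 or 3 or NMN kidney replicate 2 or 3 (adjusted p up to 0.0919). That of Cyp4b1 (adjusted p = 0.0427) was lost in 12, among them limma voom, the replicate block, no filter on low counts and without water liver replicate 1 or 3, NMN liver replicate 3, water kidney replicate 1, 2 or 3 or NMN kidney replicate 1 or 3 (adjusted p up to 0.109). The call of Cyp39a1 was lost without water kidney replicate 3 or NMN kidney replicate 3 (adjusted p up to 0.0557), that of Gsta2 without water liver replicate 2, water kidney replicate 1 or 3 or NMN kidney replicate 2 (adjusted p up to 0.0544) and that of Timp3 without water kidney replicate 2 or 3 or NMN kidney replicate 3 (adjusted p up to 0.0581). That of Ugt2b38 was lost without water kidney replicate 2 or 3 (adjusted p up to 0.0556) and that of Slc22a28 without water kidney replicate 3 (adjusted p up to 0.0534), both also by limma voom and with the replicate block. No interaction was called in the lists of the circadian clock (23 genes), glucocorticoid response (21), the integrated stress and unfolded protein response (26), heat shock proteins (17), cell proliferation (17) and interferon-stimulated genes (32). These lists had 4, 3, 3, 1, 5 and 4 members at an unadjusted interaction p under 0.05, against 22.3% of all genes. DESeq2 called 2 glucocorticoid and 2 proliferation genes and 0 in the other 4 lists, and limma voom called 0 in all 6. Outside the clock list, the smallest adjusted p of each were at Sgk1 (0.0749), Pdia6 (0.136), Dnajb1 (0.129), Tyms (0.104) and Bst2 (0.123).

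**Figure D4:**
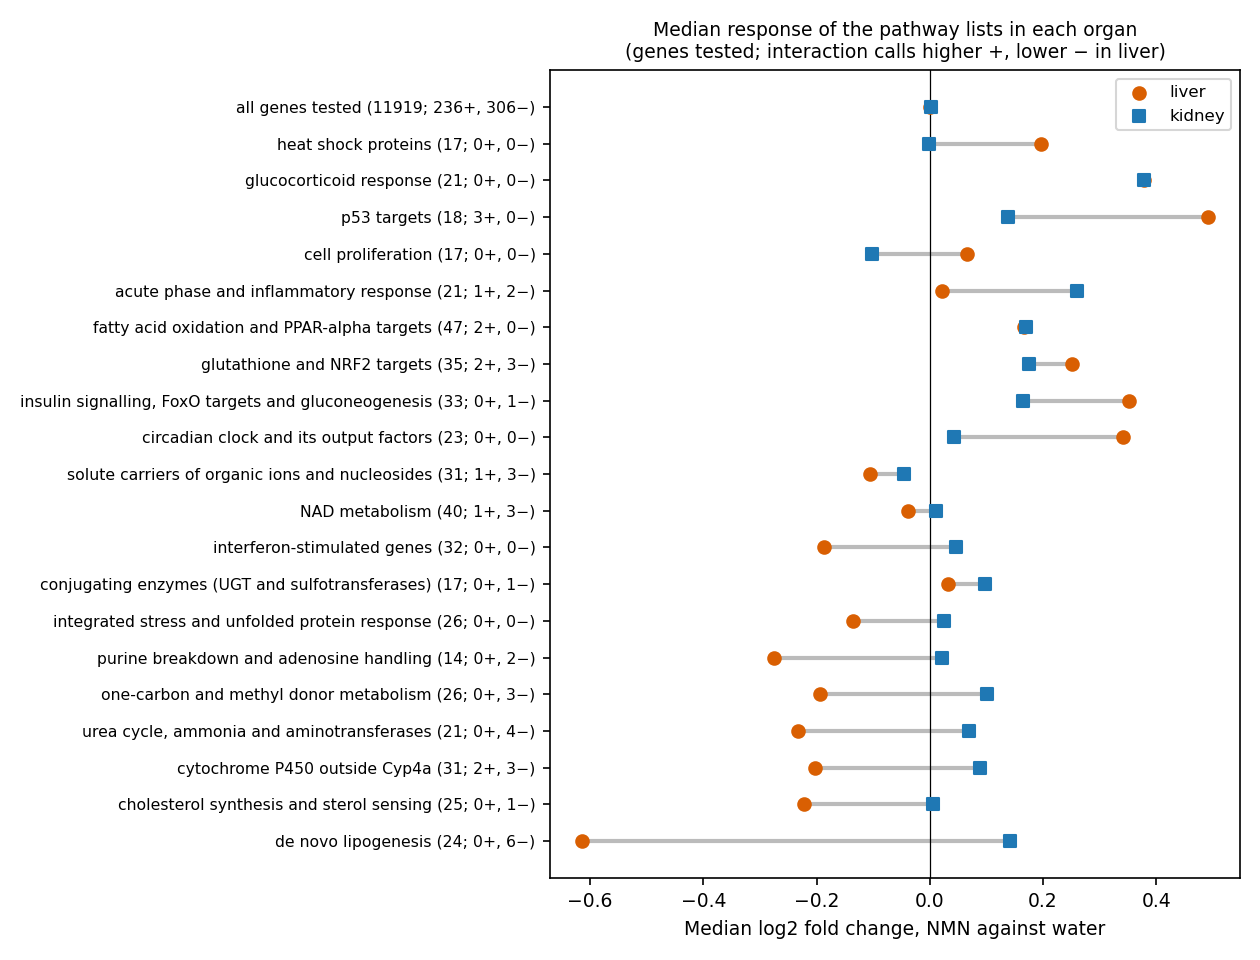
Median log2 fold change, NMN against water, of the tested genes of 20 pathway lists and of all genes in liver (circles) and kidney (squares), with the number tested and the interaction calls higher (+) and lower (−) in liver in each label. De novo lipogenesis has the widest gap (-0.61 in liver, 0.14 in kidney), fatty acid oxidation and glucocorticoid response have equal medians in both organs (0.17 and 0.38), and under another scaling the median changed sign for the acute phase and conjugating enzyme lists in liver and the cholesterol list in kidney.

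Genes that moved the same way in both organs but by unequal amounts were fewer, and their kidney side rests on the unadjusted threshold unless an adjusted p is given. Gsta2, a glutathione transferase induced by NRF2 that has a near-identical copy, was at 33.0, 32.6 and 45.0 CPM in water livers and 135, 130.4 and 169.5 in NMN livers, and at 332, 265 and 292 CPM in water kidneys and 507, 498 and 647 in NMN kidneys. It was up-regulated in both, by 1.97 ± 0.18 in liver (adjusted p = 0.000398) and 0.89 ± 0.12 in kidney (adjusted p = 0.0182). The other named up-regulated genes were Lgals4, a galectin of epithelia, Mgea5, which removes O-linked N-acetylglucosamine from proteins, the p53 target Trp53inp1 and Cyp39a1, an oxysterol hydroxylase, with liver log2 fold changes of 2.78, 1.31, 1.75 and 1.72 and kidney values of 0.51, 0.28, 0.23 and 0.47. Cyp2c69, a cytochrome P450 of a cluster of similar copies, had 132, 103 and 100 counts in water livers and 0, 1 and 1 in NMN livers. In kidney it had 27, 18 and 49 counts with water and 11, 15 and 22 with NMN, from deeper NMN libraries. Cela1, a serine protease, had log2 fold changes of -2.18 in liver and -0.31 in kidney, Hyi -1.58 and -0.35, Cryzl2 -1.37 and -0.36, and Fahd2a -1.60 and -0.31. Aqp4, a water channel chosen after its values were seen, was down-regulated in both organs, at -2.77 ± 0.51 (adjusted p = 0.0119) and -0.91 ± 0.12 (adjusted p = 0.0182). It lost the liver call without NMN liver replicate 3 (adjusted p up to 0.0567). It lost the kidney call in 5 alternatives, among them without water kidney replicate 1, 2 or 3 (adjusted p up to 0.208). Its interaction (-1.85 ± 0.48, adjusted p = 0.0477) was lost in 15 alternatives, among them limma voom, the replicate block and without water liver replicate 2 or 3, NMN liver replicate 2 or 3, water kidney replicate 1, 2 or 3 or NMN kidney replicate 1, 2 or 3 (adjusted p up to 0.115). Pbld2 and Sugct, an enzyme of glutarate breakdown that overlaps Mplkip, changed in both organs with no interaction called. Pbld2 was at 153, 142 and 143 CPM in water livers, 89.7, 71.2 and 70.7 in NMN livers, 24.4, 26.6 and 23.3 in water kidneys and 16.4, 13.7 and 14.1 in NMN kidneys, and its interaction was -0.17 ± 0.17 (adjusted p = 0.582). Sugct had log2 fold changes of -1.13 ± 0.18 in liver and -0.48 ± 0.08 in kidney, and its interaction of -0.65 ± 0.18 (adjusted p = 0.0523) lay just outside the threshold and was called in 9 alternatives.

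Of the 31 genes that changed in kidney, 10 showed an interaction and 21 did not. Liver and kidney calls shared 9 genes, 1.07% of those called in liver and 29.0% of those called in kidney, 6 in the same direction and 3 in opposite ones. For 16 kidney genes the liver response had an unadjusted p of 0.05 or more and yet no interaction was called, so that they cannot be placed in one organ. Tspo, Pdxk, Azgp1 and Habp2 were looked up after their values were seen. Tspo, a mitochondrial membrane protein, and Pdxk, which activates vitamin B6, rose in kidney (0.49 ± 0.08 and 0.81 ± 0.13) and were at -0.02 and 0.10 in liver, with interactions of -0.51 (adjusted p = 0.0894) and -0.71 (adjusted p = 0.116). Azgp1, a secreted glycoprotein, and Habp2, a serine protease, fell in kidney (-0.55 ± 0.07 and -0.58 ± 0.08) and were at -0.25 and -0.47 in liver, with interactions of 0.29 and 0.11, neither called. For Habp2 the liver value had an unadjusted p of 0.0157. All 15 named genes called in kidney lost that call under at least 1 alternative.

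The same interaction was fitted in the 16 libraries of the 1340 mg/kg/d schedule (4 for each organ and treatment), which share no library with the 12. It was called at 2 of 11929 genes (0.0168%), and at 620 at an unadjusted p under 0.05 (5.2%). In liver alone 2 genes were called there (0.0168%, and 6.75% at an unadjusted p under 0.05), and in kidney 8 (0.0671% and 9.15%). Of the opposite genes tested there, 82 of 89 (92.1%) had an interaction of the same sign, against 7127 of 11462 genes overall (62.2%), and 20 of the 82 had an unadjusted p under 0.05. Of the liver-only genes 289 of 344 (84.0%) had the same sign and 45 of the 289 an unadjusted p under 0.05, and of the unequal genes 32 of 45 (71.1%). Members of a class share libraries, so these shares carry no test. In kidney the sign at 2680 mg/kg/d was kept at 1340 mg/kg/d by 22 of the 45 opposite genes higher in liver, by 35 of the 44 lower in liver and by 6628 of 11462 genes overall. In liver it was kept by 39 of the 45, 35 of the 44 and 7809 of the 11462. The kidney libraries of the schedules also differed in read classes, with 8.92 to 10.6% of counted reads mitochondrial at 1340 mg/kg/d against 19.8 to 21.6% at 2680 mg/kg/d, and 10.3 to 11.6% of reads not placed uniquely against 18.9 to 19.95%.

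Single genes had the following values at 1340 mg/kg/d. Il1r1 had an interaction of 1.75 at 1340 mg/kg/d (edgeR adjusted p = 0.0488), from 1.85 in liver and 0.09 in kidney, and was the 1 gene called in both schedules, though its call at 2680 mg/kg/d was lost in 9 alternatives. Slc38a3 had -1.37 (unadjusted p = 0.000103), from -0.26 in liver and 1.10 in kidney. Fam25c had -1.003, Glud1 -0.48, Cited2 -0.95 and Gpc1 -0.93, each with an unadjusted p under 0.05 and the direction seen at 2680 mg/kg/d. Other opposite genes had small values, with Fgg at -0.034, Fga at -0.155, Cdo1 at -0.165 and Creb1 at 0.104. Their unadjusted p by edgeR were 0.879, 0.558, 0.442 and 0.639. Acmsd had 0.12, with lower values in NMN-treated mice in both organs at 1340 mg/kg/d (-0.61 in liver and -0.74 in kidney). Macrod1 had -0.08 and a liver value of -0.25, against -3.43 at 2680 mg/kg/d. Whether a gene's interaction differed between schedules was not tested, and the schedules differ in dose, in gavages per day and in their control mice.

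**Figure D5:**
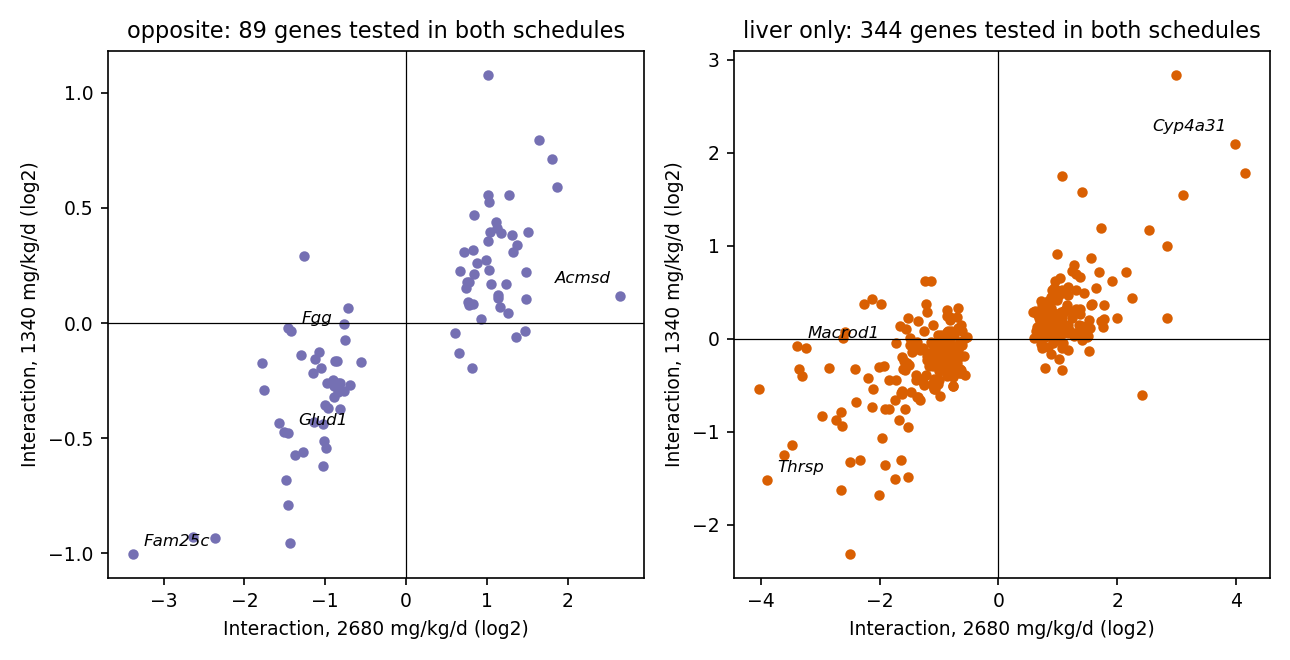
Organ by NMN interaction (log2) at 2680 mg/kg/d (x axis) and at 1340 mg/kg/d (y axis) for the opposite genes (left, 89) and the liver-only genes (right, 344) tested in both schedules. Points in the lower left and upper right quadrants, 82 of 89 and 289 of 344, have the same sign.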

How the data were processed

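Poly(A) RNA libraries of liver and kidney were sequenced on either of 2 Illumina instruments. Which library ran on which is not given in the sources used here, so an effect of the instrument was not tested. According to the study's methods, the authors used STAR for alignment and HTSeq-count for counting, with the strict intersection rule and no strand information. The genome build is not given unambiguously in the sources used here, so no coordinate was taken from the deposited files. The deposited values are raw counts per gene. Rows that name no gene (20.07 to 29.17% of each library) were left out. Gene symbols came from GENCODE M21, and 37 identifiers had none. CPM of named genes are counts scaled to 1000000 reads in tested genes, with TMM factors within each organ, and CPM of cell markers are scaled to all counted reads.

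Genes passing edgeR's filter in each organ were kept. The interaction was fitted in 1 model of 4 groups by edgeR 4.0.16 (R 4.3.3, robust quasi-likelihood, TMM), and each organ's response in its own 6 libraries. DESeq2 1.42.0, limma 3.58.1 voom, other scalings and filters, a replicate block and leaving out each library were alternatives. GC and length offsets, organ-specific spread and the 1340 mg/kg/d libraries were chosen later, with the data in view. The fits were tested on simulated data, and nothing is read from that test here. P-values set each difference against the spread between libraries. In the interaction fit, liver and kidney share an estimate of this spread for each gene. When each organ kept its own spread, 557 interaction genes were called, of which 471 were also called in the main fit. The call was kept by 81 of 89 opposite, 330 of 352 liver-only and 35 of 45 unequal genes. Of the 56 genes outside these classes, 25 kept it.

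Named genes were, for each class and direction, the 5 with the smallest p, a mean of at least 1 CPM in each organ and a formal symbol, with the 3 smallest interaction p of each of 20 pathway lists and Nampt, Nmnat1, Nmrk1, Nnmt, Macrod1, Gpt and Got1. Members and lists were chosen with earlier results of these data known. Ugdh, Cyp2d22, Gstm7, Slco2b1, Pgd, Parp1 and Snrpn are named only as members of small counts. Some items are not reported here.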

Additional observations from a re-analysis of the deposited data

Results flagged for a closer look

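Each of 67 named genes with a called interaction was set aside because its response to NMN differed between liver and kidney by the interaction test itself (edgeR, adjusted p under 0.05). The log2 interaction follows each name, positive where the response was higher in liver. Opposite genes higher with NMN in liver were Acmsd (2.64), Timp3 (1.65), Creb1 (1.49), Tia1 (1.47), Dleu2 (1.38), Luc7l3 (1.33), Khdc4 (1.14), Srsf6 (1.13), Hnrnph1 (1.05), Cyp4b1 (0.85) and Chd3 (0.83). Opposite genes lower with NMN in liver were Fam25c (-3.38), Eef2k (-2.64), Gpc1 (-2.37), Cyp2d9 (-1.57), Glud1 (-1.46), Cited2 (-1.43), Fgg (-1.42), Ebp (-1.27), Fga (-1.12), Slco2a1 (-1.03) and Cdo1 (-0.86). The rest of them were Mgst1 (-0.84), Ido2 (-0.84), Aldh1l1 (-0.82) and Xdh (-0.69).

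Liver-only genes that were up-regulated were Cyp4a31 (3.98), Glt1d1 (1.77), Brpf3 (1.63), Crat (1.55), Polk (1.41), Fubp1 (1.35), Zfp131 (1.31), Slc16a10 (1.24), Il1r1 (1.08) and Mdm2 (0.83). Liver-only genes that were down-regulated were Thrsp (-3.90), Macrod1 (-3.39), Ugt2b38 (-2.50), Acacb (-2.40), Fasn (-2.14), Tmem86b (-2.02), Adora1 (-1.90), Slc23a1 (-1.68), Scd1 (-1.64), Tmem9 (-1.63) and Gstm2 (-1.62). The rest of the down-regulated liver-only genes were Gamt (-1.54), Glul (-1.37), Nadsyn1 (-0.97), Shmt1 (-0.88) and Fbp1 (-0.74). Genes higher with NMN in both organs by unequal amounts were Lgals4 (2.28), Trp53inp1 (1.52), Cyp39a1 (1.25), Gsta2 (1.08) and Mgea5 (1.03). Genes lower with NMN in both organs by unequal amounts were Cyp2c69 (-5.73), Pklr (-2.85), Slc22a28 (-2.60), Cela1 (-1.87), Aqp4 (-1.85), Prodh2 (-1.29), Fahd2a (-1.28), Hyi (-1.23) and Cryzl2 (-1.01). Outside these classes was Slc38a3 (-1.90). The value of Cyp2c69 depends on the fit, because its NMN livers held 0, 1 and 1 counts.

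Reads assigned to no gene lie outside the gene counts and were set aside because their share separated NMN from water libraries in both organs. The mean share was 3.45% ± 0.173 (SD) in water livers and 4.39% ± 0.602 in NMN livers, a difference of 0.934 percentage points. It was 7.08% ± 0.261 in water kidneys and 6.52% ± 0.0922 in NMN kidneys, a difference of -0.567 percentage points (exact two-sided permutation test, n = 3 per group, p = 0.1 in each organ, the smallest p possible).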

How the results depend on the processing

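Of 68 named genes with a called interaction, 43 were called under all alternatives, 25 lost the call in at least 1 and none changed sign. Named genes were chosen in large part for a small interaction p, so this share does not hold for all called genes. Of the 542 interaction genes, 145 kept the call without water kidney replicate 3 and 147 without NMN kidney replicate 3. Of the 40 named genes not called, 18 were called in at least 1 alternative. Of the named genes with no called interaction, that of Pck1 (0.13) ran from -0.22 to 0.63 and that of Habp2 (0.11) from -0.086 to 0.28, and the rest kept their sign. By DESeq2's Wald test 1272 genes were called for the interaction, 1399 in liver and 182 in kidney, of which 763 were liver only, 17 kidney only, 72 unequal and 24 alike in both organs (changed in both in the same direction, no interaction called). Without a filter on low counts 1791 genes were called in liver, 111 in kidney and 11 alike in both. Taking the organ contrasts from the 12-library fit, which gives liver and kidney one estimate of spread, called 2587 genes in liver and 4 in kidney, with 45 opposite, 20 unequal, 2 kidney only and 0 alike. Kidney-only genes numbered 1 with DESeq2 size factors, upper quartile scaling, limma voom, no filter, a fit without robust estimation, thinning to the smallest library, or offsets for GC content and exon length. Genes alike in both organs numbered 1 with DESeq2 size factors, with 10 counts required in every library or without robust estimation, and 4 after thinning or when each organ kept its own spread. At an adjusted p under 0.01 and a fold over 2 there were 75 interaction genes, 133 in liver and 0 in kidney, with 41 liver only, 15 opposite, 6 unequal and 0 alike. At an unadjusted p under 0.05 there were 2662, 2924 and 1347, with 1827 liver only, 206 kidney only, 139 opposite, 131 unequal and 171 alike.

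Leaving out 1 library at a time gave 145 to 1523 interaction genes, 182 to 1298 in liver and 0 to 127 in kidney. The ranges were 95 to 880 for liver only, 0 to 5 for kidney only, 29 to 155 for opposite, 11 to 77 for unequal and 0 to 13 for alike in both. The largest counts came without NMN liver replicate 2, except those in kidney and alike in both, which came without NMN kidney replicate 1. The cause of these shifts was not tested.

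With the replicate number as a block, the libraries gave 319 interaction genes and 50 in kidney, with 210 liver only, 1 kidney only, 58 opposite, 29 unequal and 8 alike. In the interaction fit the block joined the liver and kidney libraries of one treatment and number. In the organ fits it joined the NMN and water libraries of one number, which came from different mice. The class counts rest on both kinds of block. Of the main classes, 53 of the 89 opposite and 185 of the 352 liver-only genes kept the interaction call, and all of both kept their sign. The numbers were not taken as pairs in the main fit, because same-numbered liver and kidney libraries did not correlate throughout. Their deviations from the group means correlated at 0.32, 0.13 and 0.21 with water but at 0.09, 0.01 and -0.04 with NMN. The highest correlation with the other organ at another number was -0.18, -0.01 and 0.06 with water and -0.02, 0.14 and 0.02 with NMN. Same-numbered NMN and water libraries correlated at 0.03, 0.20 and 0.28 in liver and 0.02, -0.07 and -0.03 in kidney. These values do not settle whether the liver and kidney of one number came from one mouse. With 3 libraries a group, a gene absent from a class may still belong to it.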
